A study of Mus musculus with 12 samples.

Results

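The Integrator complex was followed through the transcripts of 10 of its subunits, Ints1 to Ints10, in mid-2-cell mouse embryos. Every probe set that the array annotation assigned to one of these symbols was taken, which gave 25 of the 44937 probe sets on the arrays and 10 of the 18163 genes that could be named. The probe set with the highest mean level over all arrays stood for its gene, and the other 15 served as a check. The embryos formed 4 groups of 3 arrays each. All came from wild type F1 (C57BL6xDBA/2) females of 3 to 5 weeks mated with wild type males. The females had been superovulated with pregnant mare's serum gonadotropin and then human chorionic gonadotropin (hCG). Embryos were taken at the 1-cell stage, 17 hours after hCG, and cultured to the mid-2-cell stage. Oct4-MO embryos were injected at the 1-cell stage with 0.6 mM of an antisense morpholino oligonucleotide (MO) against the translation start of Oct4, and were set against uninjected embryos of the same collection cultured in parallel. Ccna2-MO embryos received a morpholino against Ccna2, the gene of cyclin A2, and had uninjected embryos of their own; the labels also give 0.6 mM, whereas the study's methods give a higher concentration. RNA for each array was extracted from 20 embryos pooled from 3 to 6 females. Of that RNA, a part worth 10 embryos went through 2 rounds of amplification. No embryos injected with a mismatched morpholino are among these arrays. The study treats the Ccna2-MO arrays as its control for microinjection and for the presence of morpholino. Against uninjected embryos, injection itself and the loss of the targeted protein cannot be told apart here. In pooled embryos less transcript per embryo and fewer transcribing embryos cannot be told apart either.

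Integrator binds RNA polymerase II and cuts nascent RNA. It is known for making the 3′ ends of the small nuclear RNAs of the spliceosome, and for ending transcription early at many protein-coding genes by releasing paused polymerase, with the help of a phosphatase that it carries. Mouse embryos that lack Ints1 are known to stop at the blastocyst stage. The places of the subunits in the complex, given below with each gene, are known mainly from the human proteins.

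The values are linear intensities that the authors normalized between arrays with dChip. A fold change is a difference of log2(value + 16), which understates the change of dim probe sets. A gene was called where limma gave a Benjamini-Hochberg adjusted p under 0.05 over all probe sets of the array. A level of 1 probe set cannot be set against that of another, so levels are compared between groups only. The median value of an array was 22.7 to 25.5, and 39.3 to 42.7% of its probe sets lay under 16. Of the oocyte and early embryo markers measured, 10 of 12 averaged over 100, as did all 6 of the genes of 2-cell genome activation. Some of these stage markers moved with injection. Zar1, a maternal-effect gene of the oocyte, rose in the mean of both knockdowns, by 2.02 on the log2 scale (adjusted p = 0.0067, called in Ccna2-MO embryos). Gdf9 was wholly higher in both injected groups, with a mean change of 0.55 that was not called (adjusted p = 0.055). Dppa3 was wholly lower in both, with a mean change of -0.17 (adjusted p = 0.047, and 0.053 with pairs). Trim43a of 2-cell activation fell in Oct4-MO embryos (1650 ± 377, against 3555 ± 352 in uninjected embryos, SD, n = 3 each, adjusted p = 0.022). It was also wholly lower in Ccna2-MO embryos (-0.38, adjusted p = 0.24). The activation genes did not move alike: 2 of 6 lay below 0 in Oct4-MO embryos and 3 of 6 in Ccna2-MO embryos. Tcstv1 was wholly higher in Oct4-MO embryos, and Zfp352 and Usp17la were wholly higher in Ccna2-MO embryos. Eif1a was wholly lower in Oct4-MO embryos (-0.59, adjusted p = 0.71) and had -1.12 in Ccna2-MO embryos, with overlap (adjusted p = 0.19). Of 11 cumulus and granulosa markers, 7 averaged under 16 and 2, Amhr2 and Cyp11a1, over 100, and the summed level of the list was 614 to 852 on Oct4-MO arrays, 639 to 699.9 on their uninjected arrays, 605 to 1397 on Ccna2-MO arrays and 709.9 to 1138 on their uninjected arrays. Cyp11a1 was higher in both injected groups with no overlap, at 331 in Oct4-MO embryos against 131 in uninjected embryos and at 216 in Ccna2-MO embryos against 82.0 in uninjected embryos, and was not called (adjusted p = 0.51 and 0.18). Amhr2 went the other way with overlap, at 305 in Oct4-MO embryos against 419 and at 573 in Ccna2-MO embryos against 707 (adjusted p = 0.84 and 0.69). In each experiment 5 of the 11 markers lay below 0. All 3 blood markers averaged under 16. Of 5 sperm markers 1, Prm1, averaged over 100, and their sum was 307 to 344 on Oct4-MO arrays, wholly above the 214 to 275 of uninjected arrays, and 200.1 to 289 on Ccna2-MO arrays, against 175 to 228 on uninjected arrays. The part of these markers in the values of the subunits was not tested. Morpholinos block translation and need not lower a transcript, so the arrays do not check the knockdown: Pou5f1, which encodes Oct4, had a log2 fold change of 0.18 in Oct4-MO embryos (adjusted p = 0.77), and Ccna2 had -0.12 in Ccna2-MO embryos (adjusted p = 0.76).

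Across the subunits, by their brightest probe sets, most transcripts lay lower in injected than in uninjected embryos and Ints6 lay higher. The log2 fold change was below 0 for 9 of 10 genes in Oct4-MO embryos, where 48.5% of all genes were below 0, and for 9 of 10 in Ccna2-MO embryos, where 46.8% of all genes were. The median change of the subunits was -0.47 in Oct4-MO embryos and -0.44 in Ccna2-MO embryos, beside medians of 0.01 and 0.03 over all genes. Few of these changes passed the test for a single gene. In Oct4-MO embryos 0 of 10 subunits were called, where 0.0936% of all genes were (17 of 18163), and 1 had an unadjusted p under 0.05, as did 10.6% of all genes. In Ccna2-MO embryos 1 of 10 was called, Ints1, which fell, where 0.93% of all genes were called, and 4 had an unadjusted p under 0.05, as did 16.7% of all genes. Averaged over both knockdowns, 3 of 10 were called, where 3.22% of all genes were: Ints1 and Ints4 fell and Ints6 rose. The change in Oct4-MO embryos differed from that in Ccna2-MO embryos for 0 of 10 subunits, where 0% of all genes were called, and 1 had an unadjusted p under 0.05, as did 7.11% of all genes.

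**Figure D1:**
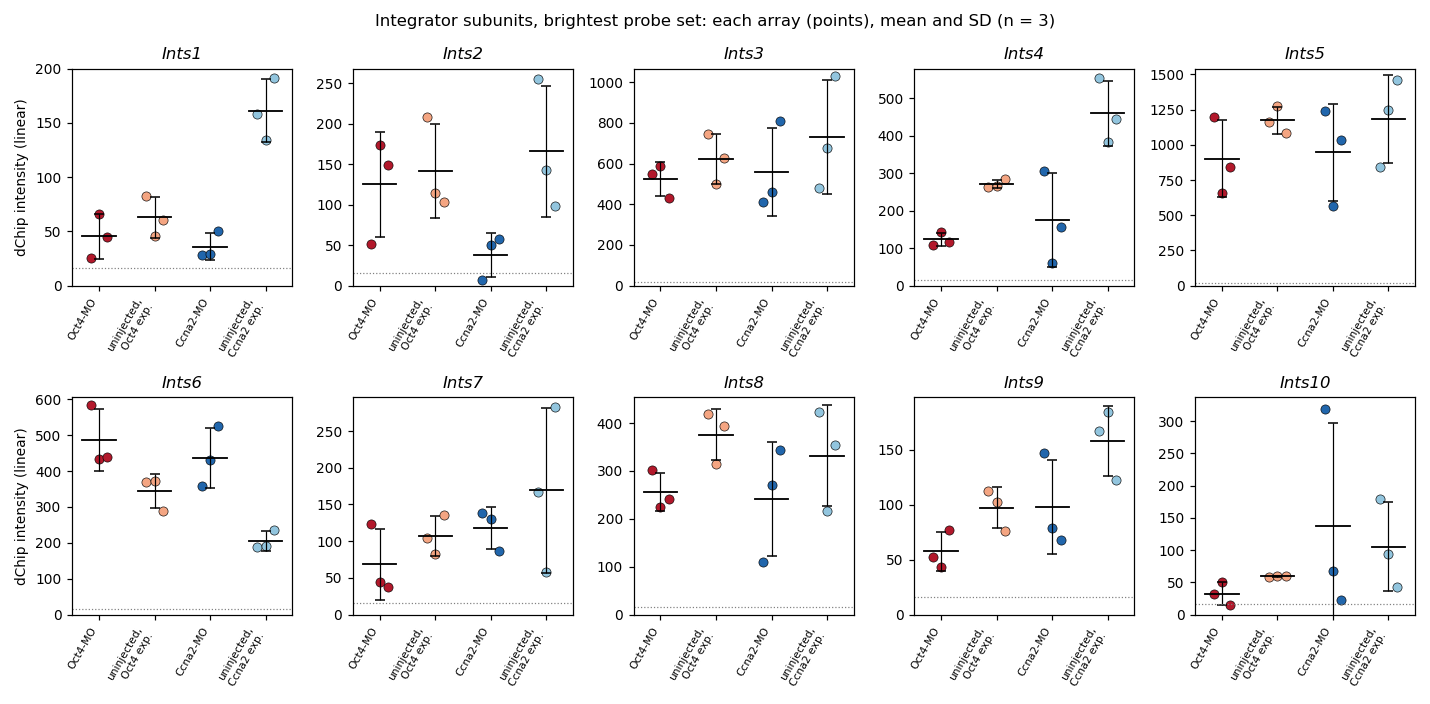
Intensity (linear, dChip) of the brightest probe set of each subunit on every array, with 4 groups in each panel: Oct4-MO, its uninjected embryos, Ccna2-MO and its uninjected embryos. Points are arrays, horizontal bars are means, error bars are the SD (n = 3, cut off at 0), and the dotted line lies at 16; Ints6 is the gene whose injected arrays all lie above their own uninjected arrays in both experiments, and Ints4 the gene whose injected arrays all lie below them in both.

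Ints1, the largest subunit and part of the backbone of the complex, was the gene that was called in Ccna2-MO embryos. It had 28.5, 29.3 and 50.0 on the 3 Ccna2-MO arrays, against 158, 134 and 192 on their uninjected arrays. The groups did not overlap, and the mean was 4.49-fold lower in Ccna2-MO embryos (35.9 ± 12.2, against 161 ± 28.9 in uninjected embryos; SD, n = 3 each). The log2 fold change was -1.78 (SE 0.32, 95% interval -2.49 to -1.08, adjusted p = 0.035 in limma), and the adjusted p was 0.074 with each injected pool paired to its uninjected pool. With each of the 12 arrays left out in turn, the call was kept in 4 fits and lost in the others, with adjusted p from 0.030 to 0.12. In the Oct4 experiment Ints1 had 25.1, 66.2 and 45.0 on Oct4-MO arrays and 83.0, 45.4 and 60.6 on uninjected arrays. These groups overlapped, with a log2 fold change of -0.39 (95% interval -1.10 to 0.31, adjusted p = 0.81).

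The uninjected arrays of the Ccna2 experiment stood above the other 9 for Ints1. The log2 difference between the uninjected embryos of the Oct4 experiment and those of the Ccna2 experiment was -1.18 (95% interval -1.89 to -0.48, adjusted p = 0.196), and with all 6 uninjected arrays as controls the change in Ccna2-MO embryos was -1.19 (adjusted p = 0.061). The knockdown changes of Ints1 differed by 1.39 (95% interval 0.40 to 2.39), which was not called (adjusted p = 0.64). Their mean was -1.09 (SE 0.23, adjusted p = 0.032, and 0.068 with pairs), and it stayed called in 5 of the 12 fits without an array (adjusted p from 0.027 to 0.100). The other probe set of Ints1, 1443793_x_at, whose suffix marks probes that can match other sequences, had no overlap in either experiment; its change was -0.68 in Oct4-MO embryos and -1.57 in Ccna2-MO embryos (adjusted p = 0.69 and 0.108) and the mean was -1.12 (adjusted p = 0.073, and 0.037 with pairs).

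Ints2, also in the backbone, had 7.07, 49.7 and 57.5 on Ccna2-MO arrays, against 256, 143 and 98.8 on uninjected arrays. The groups did not overlap, but the change missed the threshold at a log2 fold change of -1.83 (SE 0.53, adjusted p = 0.13). In Oct4-MO embryos the values 51.7, 174 and 149 overlapped those of uninjected embryos, 209, 114 and 103, with a log2 fold change of -0.24. The other probe set of Ints2, 1436247_at, had a log2 fold change of 0.47 in Ccna2-MO embryos, the opposite sign, where Ccna2-MO array 1 had 220.1 and the arrays 2 and 3 had 37.2 and 22.9 (27.1, 35.1 and 67.5 in uninjected embryos).

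Ints7, the remaining backbone subunit of the list, gave probe sets that did not move alike. Its brightest, 1428532_at, had 123, 44.5 and 36.9 on Oct4-MO arrays and 105, 82.0 and 136 on uninjected arrays, and 139, 129.9 and 86.0 on Ccna2-MO arrays and 167, 58.5 and 283 on uninjected arrays. Both pairs of groups overlapped, and the log2 fold change was -0.67 after Oct4-MO and -0.27 after Ccna2-MO (adjusted p = 0.77 and 0.87). The probe set 1428531_at of the same gene had 15.6, 11.9 and 9.45 on Oct4-MO arrays, against 108, 81.0 and 69.2 on uninjected arrays. It had 18.4, 9.71 and 59.8 on Ccna2-MO arrays, against 168, 135 and 201 on uninjected arrays. All 6 injected arrays lay below all 6 uninjected arrays. The log2 fold change was -1.83 in Oct4-MO embryos (adjusted p = 0.103) and -2.16 in Ccna2-MO embryos (SE 0.37, adjusted p = 0.030), and the mean of both was -2.0 (SE 0.26, adjusted p = 0.0057). That mean stayed called when each of the 12 arrays was left out in turn, with adjusted p from 0.0030 to 0.027, whereas the change in Ccna2-MO embryos stayed called in 7 of 12 fits. The last probe set of Ints7 was under 16 on 11 of 12 arrays.

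Ints5 and Ints8 form the shoulder of the complex in human structures, and neither was called. Ints5 had 1198, 660.1 and 842 on Oct4-MO arrays and 1161, 1277 and 1083 on uninjected arrays (log2 fold change -0.42, adjusted p = 0.75). In Ccna2-MO embryos its change was -0.35 (adjusted p = 0.65), and the groups overlapped in both experiments. Its probe set 1417887_at had 143, 448 and 463 on Ccna2-MO arrays, against 930.3, 1128 and 645 on uninjected arrays, with no overlap (log2 fold change -1.45, adjusted p = 0.17). As for Ints1, these uninjected arrays were the high ones, since the uninjected arrays of the Oct4 experiment had 312, 236 and 335 on that probe set. Ints8 had 301, 226 and 242 on Oct4-MO arrays, below the 418, 316 and 394 of uninjected embryos, with a log2 fold change of -0.53 (adjusted p = 0.74). In Ccna2-MO embryos its change was -0.51 with overlap (adjusted p = 0.58), and on 1435250_at, another probe set of Ints8, the changes were -0.56 and -0.52 with no overlap in either experiment. The probe set 1456775_at had -0.29 in Oct4-MO embryos and 0.72 in Ccna2-MO embryos, where array 1 had 111 and the arrays 2 and 3 had 11.0 and 13.8. The last, 1460609_at, was under 16 on 10 of 12 arrays and had changes of 0.32 and -1.05.

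Ints4 and Ints9 belong to the cleavage module, in which Ints4 holds Ints9 together with the endonuclease Ints11, and Ints9 is a relative of Ints11 without its catalytic site. Ints4 had 109, 144 and 117 on Oct4-MO arrays, against 263, 266 and 284 on uninjected arrays. It had 307, 59.6 and 158 on Ccna2-MO arrays, against 554, 383 and 444 on uninjected arrays. Both injected groups lay wholly below their uninjected groups, tightly in the Oct4 experiment and with a wide spread in Ccna2-MO embryos (123 ± 18.2 and 175 ± 125; SD, n = 3 each). The mean was 2.20-fold lower in Oct4-MO embryos and 2.63-fold lower in Ccna2-MO embryos. The uninjected arrays of the Ccna2 experiment all lay above those of the Oct4 experiment. The log2 difference, Oct4 experiment minus Ccna2 experiment, was -0.71 (95% interval -1.60 to 0.18, adjusted p = 0.54). Neither knockdown change was called (log2 fold changes -1.05 and -1.54, adjusted p = 0.45 and 0.107), but their mean was, at -1.30 (SE 0.29, 95% interval -1.93 to -0.67, adjusted p = 0.040, and 0.033 with pairs). That call was kept in 2 of 12 fits without an array, with a mean change from -1.55 to -1.02 and adjusted p from 0.010 to 0.104. Ints4 has only 1 probe set, so there is no check of it on the array. Ints9, also with 1 probe set, had 52.2, 43.3 and 77.1 on Oct4-MO arrays and 113, 102 and 76.5 on uninjected arrays, and 147, 78.6 and 67.7 on Ccna2-MO arrays and 167, 185 and 123 on uninjected arrays. Its changes of -0.63 and -0.66 were close in size and their mean of -0.65 missed the threshold (SE 0.23, adjusted p = 0.18).

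**Figure D2:**
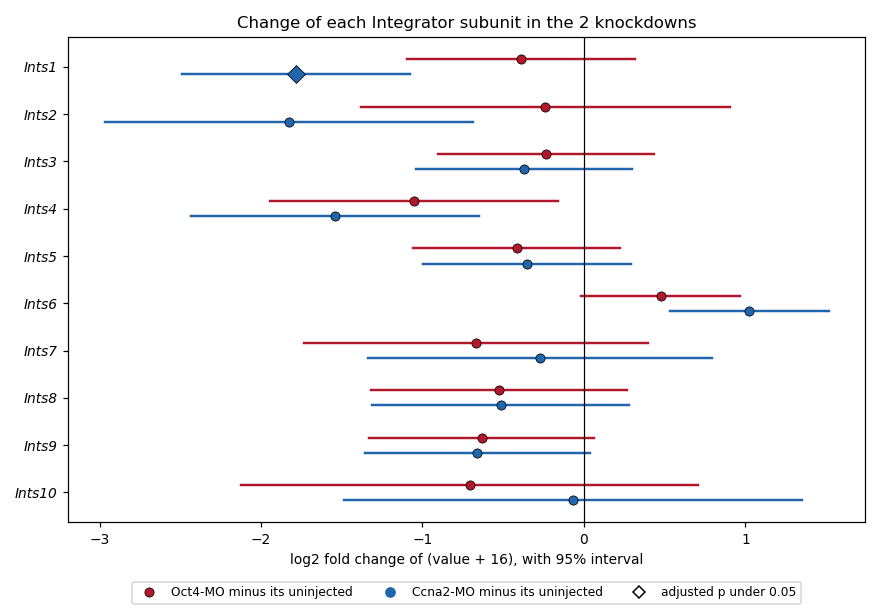
Log2 fold change of (value + 16) of each subunit by its brightest probe set (points), with the 95% interval from limma (lines), for Oct4-MO embryos (red, upper of each pair) and Ccna2-MO embryos (blue), each against its own uninjected embryos. Ints1 in Ccna2-MO embryos, at -1.78, is the called change (diamond), and Ints6 is the gene above 0 in both.

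Ints6 was the exception in direction. This subunit joins the phosphatase PP2A to the complex, a link by which Integrator removes phosphates from the polymerase and its pausing factors. It had 585, 434 and 439.6 on Oct4-MO arrays, against 369.9, 373 and 289.7 on uninjected arrays. It had 358, 430.3 and 524 on Ccna2-MO arrays, against 189, 191 and 237 on uninjected arrays. The injected groups lay wholly above their own uninjected groups, by a log2 fold change of 0.48 in Oct4-MO embryos (adjusted p = 0.56) and 1.02 in Ccna2-MO embryos (SE 0.23, 95% interval 0.53 to 1.52, adjusted p = 0.061). Their mean of 0.75 was called (SE 0.16, 95% interval 0.40 to 1.10, adjusted p = 0.034, and 0.046 with pairs), and it was kept in 2 of 12 fits without an array, with a mean change from 0.68 to 0.82 and adjusted p from 0.027 to 0.103. In order of level, Oct4-MO (486 ± 85.4) and Ccna2-MO embryos (437 ± 83.6) overlapped each other, the uninjected embryos of the Oct4 experiment came next (344 ± 47.1), and those of the Ccna2 experiment were lowest (205 ± 27.2; SD, n = 3 each). The log2 difference between these uninjected groups was 0.70 (95% interval 0.21 to 1.19, adjusted p = 0.26).

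The other 3 probe sets of Ints6 had changes above 0 in both experiments, from 0.28 to 0.56 in Oct4-MO embryos and from 0.39 to 1.19 in Ccna2-MO embryos. The next brightest, 1423274_at, overlapped in both experiments, with changes of 0.28 and 0.39 (adjusted p = 0.89 and 0.65). On 1436089_at the groups also overlapped in both, and Oct4-MO array 3 had 77.4 where the arrays 1 and 2 had 5.85 and 5.35. On 1443128_at, Ccna2-MO arrays had 56.9, 52.3 and 47.2, against 8.40, 20.3 and 13.9 on uninjected arrays, a change of 1.19 that was called (adjusted p = 0.042, and 0.072 with pairs) and that stayed called in 2 of 12 fits without an array. On the same probe set Oct4-MO arrays had 12.3, 14.4 and 24.2, against 6.72, 4.53 and 13.6 on uninjected arrays, with overlap and most values under 16. The mean of both changes was 0.82 and was called (adjusted p = 0.029), and it stayed called in 4 of 12 fits without an array (adjusted p from 0.030 to 0.093).

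Ints3 and Ints10 showed no called change. Ints3, which also works with the single-strand DNA-binding SOSS complex in the repair of breaks, had 550.4, 590.2 and 433 on Oct4-MO arrays and 745, 498 and 626 on uninjected arrays. It had 409.7, 458 and 807 on Ccna2-MO arrays and 477, 677 and 1032 on uninjected arrays. All these groups overlapped and the changes were -0.23 and -0.37 (adjusted p = 0.90 and 0.65), on a probe set whose suffix marks probes shared between transcripts of different genes. The other probe set of Ints3 had 830.1 on Ccna2-MO array 1, beside 113 and 90.2 on the arrays 2 and 3 and 90.8, 97.3 and 85.8 on uninjected arrays. Ints10, which forms an arm with Ints13 and Ints14, had 31.9, 51.0 and 14.6 on Oct4-MO arrays, below the 58.6, 60.5 and 59.1 of uninjected embryos (log2 fold change -0.71, 95% interval -2.13 to 0.71). In the Ccna2 experiment its values ran from 23.3 to 319.6 in Ccna2-MO embryos and from 43.2 to 180.0 in uninjected embryos, and its change of -0.07 (95% interval -1.48 to 1.35) leaves both directions within the interval.

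Ccna2-MO array 1 was the highest of the Ccna2-MO arrays for Ints4, Ints5, Ints7, Ints9 and Ints10 and for the other probe sets of Ints2 and Ints3, and the lowest for Ints1, Ints2, Ints3, Ints6 and Ints8 by their brightest probe sets. The same array had the highest sum of cumulus markers (1397) and of blood markers (106) of all 12 arrays. Of these sums, 989 came from Amhr2 alone and 78.25 from Alas2 alone. Amhr2 also had 966 on uninjected array 3 of the Ccna2 experiment. The part of these markers in the values of the subunits was not tested. Without this array, Ints4 was called in Ccna2-MO embryos (log2 fold change -2.04, adjusted p = 0.031) and Ints1 was not (-1.68, adjusted p = 0.066).

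Read by overlap alone, 3 of 10 subunits were wholly lower in Oct4-MO than in uninjected embryos (Ints4, Ints8 and Ints10), where 9.57% of all genes were, and 1 was wholly higher (Ints6), where 9.21% were. In the Ccna2 experiment 3 of 10 were wholly lower (Ints1, Ints2 and Ints4), where 9.29% of all genes were, and 1 was wholly higher (Ints6), where 9.89% were. Over all 25 probe sets of the subunits, 0 were called in Oct4-MO embryos, where 0.0734% of probe sets were. In Ccna2-MO embryos 1 rose and 2 fell, where 0.748% of probe sets were called, and averaged over both knockdowns 2 rose and 3 fell, where 2.32% were. With pairs, the probe set 1428531_at of Ints7 was the 1 that stayed called in Ccna2-MO embryos. Counted over these probe sets, 19 of 25 changes were below 0 in Oct4-MO embryos, where 48.7% of all probe sets were. In Ccna2-MO embryos 17 of 25 were, where 46.7% of all probe sets were. Of the 15 check probe sets alone, 10 lay below 0 in Oct4-MO embryos and 8 in Ccna2-MO embryos (medians -0.10 and -0.42). Between the uninjected embryos of the Oct4 and the Ccna2 experiment 0 of 10 subunits were called, where 0.116% of all genes were, and 2 had an unadjusted p under 0.05, as did 12% of all genes: Ints6, higher in the Oct4 experiment, and Ints1, lower there. What else differed between the experiments cannot be told apart from the experiment in that comparison.

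**Figure D3:**
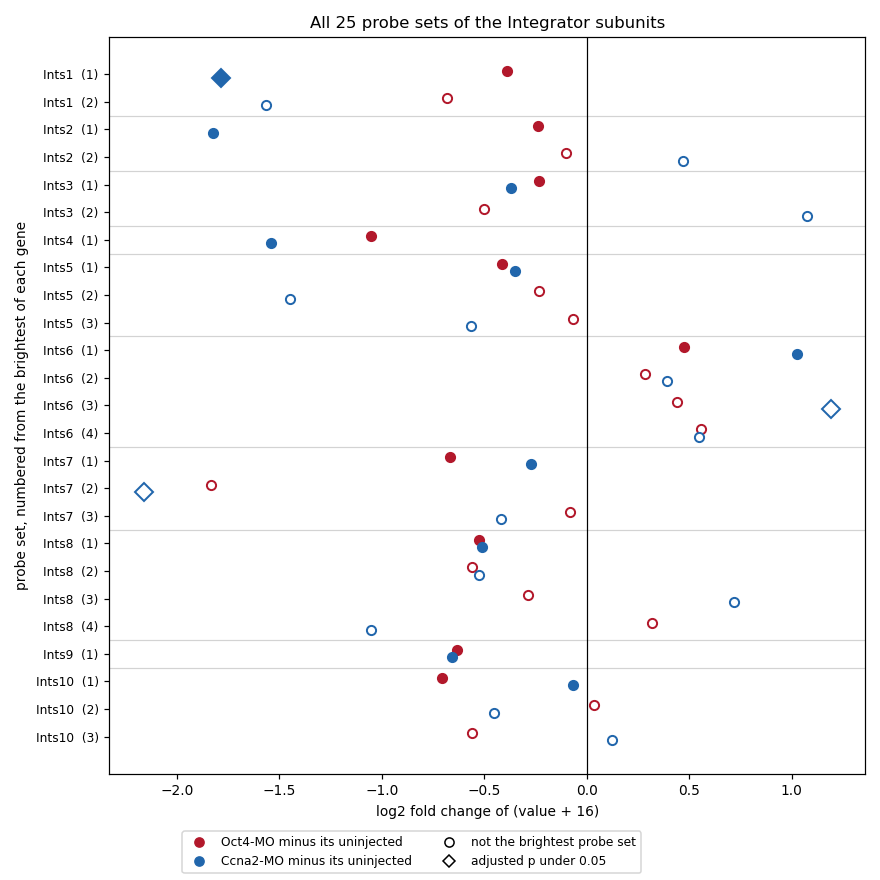
Log2 fold change of (value + 16) on each of the 25 probe sets of the subunits, numbered from the brightest of each gene, for Oct4-MO (red) and Ccna2-MO embryos (blue) against their own uninjected embryos; filled points are the brightest probe sets and diamonds the called ones. All 4 probe sets of Ints6 lie above 0 in both experiments, while those of Ints2, Ints3, Ints7 and Ints8 lie apart from each other.

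The promoters of the genes that were called in the mean of both knockdowns are shown for their sequence features only, with the motif in capitals and the base before the start of transcription as -1. RefSeq promoter sequences (GRCm38.p6, 250 bases before and 50 after the start) were found for 6 of 10 subunits: Ints1, Ints2, Ints3, Ints4, Ints6 and Ints7. The lines below give 30 bases before the start, written 5′ to 3′ on the strand of the gene, for Ints1 at chr5:139775769-139775798 (minus strand, -120 to -91), Ints4 at chr7:97480921-97480950 (plus strand, -35 to -6) and Ints6 at chr14:62761178-62761207 (minus strand, -95 to -66).
Ints1: ccggccgccagaGGGCGGtgcaaacactag
Ints4: tccgtctcccagcagtagcggcagCCAATc
Ints6: agtacgtgtcagGGGCGGagcctacgtagc
The GC box letters GGGCGG were searched on both strands and occurred in 3 of 6 subunit promoters (Ints1, Ints2 and Ints6), and in 35.7% of all 32851 promoters. CCAAT occurred in 5 of 6 (Ints2, Ints3, Ints4, Ints6 and Ints7), and in 37.4% of all. The octamer ATGCAAAT, the letters by which the POU domain family of Oct4 is known, occurred in 0 of 6 and in 1.74% of all, and TATAAA in 0 of 6 and in 13.6% of all. A match describes the letters in this window and not binding.

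Subunits and partners named later than this list were measured for 7 of 8 genes, and none was called in either knockdown. All 7 had changes above 0 in Oct4-MO embryos (median 0.23), whereas 5 of 7 were below 0 in Ccna2-MO embryos (median -0.54). Ints11, the endonuclease itself, had 125, 66.8 and 205 on Oct4-MO arrays and 75.2, 61.6 and 65.0 on uninjected arrays (log2 fold change 0.72, adjusted p = 0.67). It had 84.7, 28.6 and 87.7 on Ccna2-MO arrays, below the 127, 230.5 and 126 of uninjected embryos (-1.14, adjusted p = 0.24). The difference between these changes was 1.87 and was not called (adjusted p = 0.64). Ints14 had a change of -0.95 in Ccna2-MO embryos (adjusted p = 0.21) and 0.01 in Oct4-MO embryos. Ints13 had 0.23 in Oct4-MO embryos, with no overlap (adjusted p = 0.81), and -0.54 in Ccna2-MO embryos, with overlap (adjusted p = 0.24). The difference between the changes of Ints13 was 0.77 and was not called (adjusted p = 0.69).

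Among the 4 genes of the PP2A core, the phosphatase that Ints6 holds, the median change was -0.51 in Oct4-MO embryos and 0.12 in Ccna2-MO embryos. Ppp2cb, a catalytic subunit, had changes of -0.80 and -1.09 (adjusted p = 0.39 and 0.105), and their mean of -0.95 was called (adjusted p = 0.035, and 0.0503 with pairs). Ppp2r1a, the scaffold, had 725, 743 and 389.7 on Oct4-MO arrays, below the 1519, 1200.2 and 1263 of uninjected embryos (-1.13, adjusted p = 0.32), and 0.69 in Ccna2-MO embryos (adjusted p = 0.43). In the SOSS partners of Ints3, 0 of 3 were called, and Nabp2 had 1.21 in Oct4-MO embryos (adjusted p = 0.52), Nabp1 had -0.32 and Inip -0.62 in Ccna2-MO embryos (adjusted p = 0.53 and 0.65).

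**Figure D4:**
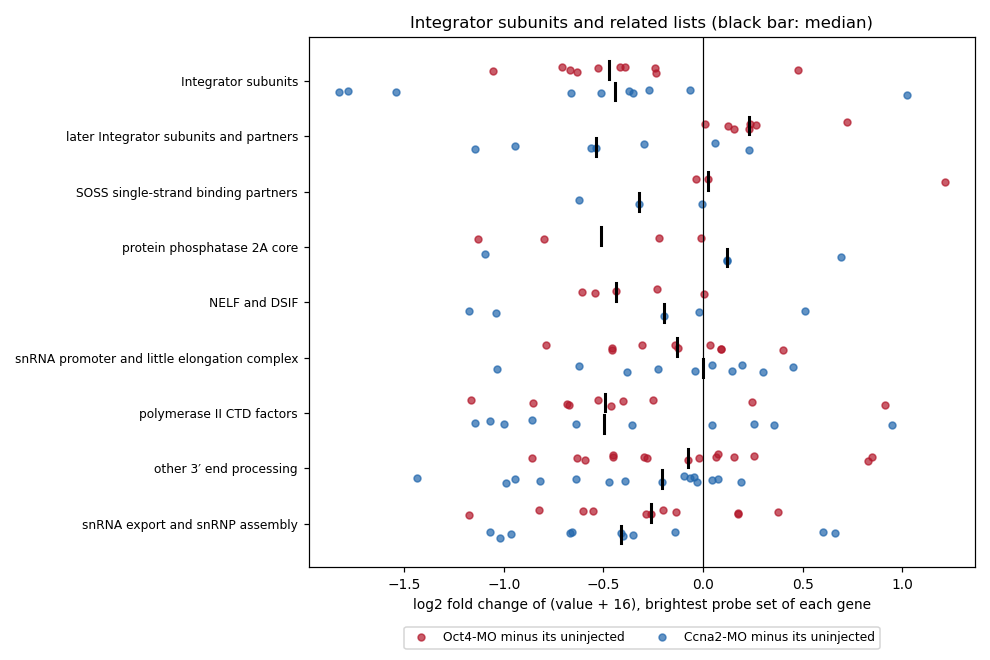
Log2 fold change of (value + 16) of the Integrator subunits and of 8 related gene lists (rows), by the brightest probe set of each gene (points), in Oct4-MO (red) and Ccna2-MO embryos (blue) against their own uninjected embryos; black bars are medians. The subunits have medians of -0.47 and -0.44, the later subunits 0.23 and -0.54, and the polymerase II CTD factors -0.49 and -0.50.

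In the pausing, polymerase and RNA processing lists around Integrator, 0 genes were called in Oct4-MO or Ccna2-MO embryos alone. Of 5 NELF and DSIF genes, which hold polymerase at the pause, Nelfcd had changes of -0.61 and -1.18 (adjusted p = 0.62 and 0.111), Supt5 had -0.54 in Oct4-MO embryos (adjusted p = 0.67) and Nelfa 0.51 in Ccna2-MO embryos (adjusted p = 0.14). Of 10 factors of snRNA promoters and the little elongation complex, Snapc3 had -0.79 and -1.03 (adjusted p = 0.64 and 0.30), Snapc1 -0.45 in Oct4-MO embryos (adjusted p = 0.51) and Tbp -0.62 in Ccna2-MO embryos (adjusted p = 0.37). Of 10 factors that modify or bind the polymerase tail, Rpap2, a phosphatase of that tail, had 0.91 and 0.95 (adjusted p = 0.27 and 0.125), and its mean change of 0.93 was called (adjusted p = 0.029). Cdk9, the kinase that releases paused polymerase, had -0.53 in Oct4-MO embryos (adjusted p = 0.14) and Rprd2 -1.07 in Ccna2-MO embryos (adjusted p = 0.17), with a mean change of -0.96 (adjusted p = 0.060, and 0.040 with pairs). This list had a median change of -0.49 with Oct4-MO, where 8 of 10 genes lay below 0, and of -0.50 with Ccna2-MO, where 6 of 10 did.

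Of 15 genes for other 3′ end processing, Cpsf4, a poly(A) signal factor, had -0.86 and -0.95 (adjusted p = 0.26 and 0.107), and its mean change of -0.90 was called (adjusted p = 0.025). Wdr33 had -0.45 in Oct4-MO embryos (adjusted p = 0.42) and Cstf1 -0.99 in Ccna2-MO embryos (adjusted p = 0.16). Of 11 genes for the export of small nuclear RNA and the assembly of its particles, Snupn and Ncbp1 had -1.17 and -0.55 in Oct4-MO embryos (adjusted p = 0.34 and 0.38). Ncbp2, part of the cap-binding complex, had -0.97 in Ccna2-MO embryos (adjusted p = 0.093, and 0.047 with pairs) and a mean change of -0.63 (adjusted p = 0.084, and 0.027 with pairs), and Gemin2 had -1.07 (adjusted p = 0.17). The median changes of the 8 related lists lay between -0.54 and 0.23.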

How the data were processed

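Each of the 4 groups was hybridised to 3 Affymetrix Mouse Genome 430 2.0 arrays. The deposited values are linear intensities, 1 per probe set, normalized by the authors with dChip, whose version and options were not given in the sources used here. Samples were grouped by their titles. The table holds 45001 probe sets, of which 64 control probe sets were left out. Platform annotation gave 34849 probe sets 1 symbol, 928 several (not named) and 9160 none.

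Values were analysed as log2(value + 16) with R 4.3.3 and limma 3.58.1: group means over all 12 arrays, 8 residual degrees of freedom, an intensity trend, and Benjamini-Hochberg adjustment over 44937 probe sets at 0.05. The steps were tested on simulated data. Arrays are separate embryo pools. Signal over background and 3 arrays per group limit the precision. The labels pair each injected pool with the uninjected pool cultured beside it. Paired arrays deviated from their group means with correlations of 0.105, 0.0613 and -0.00016 in the Oct4 experiment and -0.015, 0.111 and 0.15 in the Ccna2 experiment; the pair as a block is given where it changes a call. In all, 24 alternatives were run.

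All members are named; of each related list, the genes with the smallest p in each knockdown (at most 2) and any called gene are. The members and lists were chosen with earlier results of these data known. Gemin4, Gemin6, Ints15, Supt4a, Zfp143 and Pou2f1 were not found by symbol. No columns were left unmapped.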

Additional observations from a re-analysis of the deposited data

How the results depend on the processing

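The median changes of the subunits kept their sign and moved by less than 0.31 under every alternative run for them. That bound is the SD of the median level of the subunits between single arrays of a group. It is wide beside median changes of -0.47 and -0.44, so staying within it does not show that they are stable. The counts of called subunits changed under several alternatives. In Ccna2-MO embryos, where 1 was called, 0 were called with pairs as a block, with all 6 uninjected arrays as controls, with only the 6 arrays of the comparison and with the methods' t-test after Benjamini-Hochberg. In the same comparison 2 were called (Ints1 and Ints6) with no intensity trend, in the 22469 brighter probe sets and after median centring, and 3 by the t-test unadjusted. Leaving out each array in turn gave 0 to 1. For the mean of both knockdowns, where 3 were called, the t-test gave 0 after adjustment and 5 unadjusted, the block gave 2, and leaving out each array gave 0 to 2. Ints1 was lost in Ccna2-MO embryos without Oct4-MO array 3, uninjected array 1 or 3 of the Oct4 experiment, Ccna2-MO array 1 or 2, or any uninjected array of the Ccna2 experiment, with adjusted p up to 0.12 there. No subunit kept its call in the mean without Oct4-MO array 3, uninjected array 1 or 3 of the Oct4 experiment, or uninjected array 1 or 3 of the Ccna2 experiment. Ints4 kept its call in the mean without Ccna2-MO array 1 or 2 alone, and Ints6 without Ccna2-MO array 1 or 3 alone. Fewer arrays also leave fewer degrees of freedom. The t-test unadjusted gave 2 for Oct4-MO embryos, 1 for the difference and 2 between uninjected groups. The methods rank genes by fold change and an unpaired t-statistic with a permutation estimate of false discoveries, so the t-test used here is that statistic alone and not their procedure.

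Over all probe sets, 33 were called in Oct4-MO embryos. There were 4 with the block, 857 with all 6 uninjected arrays, 0 with only the 6 arrays, 16 with no trend, 18 with 64 added before log2, 92 among the brighter probe sets, 0 and 4292 by the t-test with and without adjustment, and 0 to 87 with an array left out. In Ccna2-MO embryos, 336 were called. There were 124 with the block, 583 with all 6 uninjected arrays, 3 with only the 6 arrays, 711 among the brighter probe sets, 0 and 4242 by the t-test with and without adjustment, and 17 to 652 with an array left out. The cause of these shifts was not tested.

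Of the single subunit values, 614 kept their direction and side of the threshold, 43 lost a call, 4 gained one and 9 changed sign, none of these called. Ints2 in Oct4-MO embryos ranged from -0.52 to 0.22 with an array left out (0.22 without Oct4-MO array 1 and 0.045 without uninjected array 1). Ints3 in Ccna2-MO embryos was 0.35 as the mean of its probe sets. Ints7 in Ccna2-MO embryos ranged from -0.82 to 0.18 (0.18 without uninjected array 3). Ints10 in Ccna2-MO embryos was 0.19 with all 6 uninjected arrays and 0.033 with 64 added, and ranged from -0.92 to 0.63 with an array left out (0.086 and 0.63 without Ccna2-MO arrays 2 and 3, 0.36 without uninjected array 1). Signals near background bound what can be said of Ints10 and of the dim probe sets of Ints6, Ints7 and Ints8.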
